A study of Mus musculus with 8 samples.

Results

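The mu, pi and theta glutathione S-transferases were followed in whole kidneys of Keap1-null mice whose Nrf2 gene was open to deletion in squamous epithelium. The members were the mouse genes Gstm1, Gstm2, Gstm3, Gstm4, Gstm5, Gstm6 and Gstm7 of the mu class, Gstp1 of the pi class, and Gstt1 and Gstt3 of the theta class. They were taken by name, each with a probe on the array, and make up 10 of the 18217 named genes on it. The other pi and theta genes Gstp2, Gstp3, Gstt2 and Gstt4 were not among them and were listed with the remaining transferases. One-colour Agilent arrays were hybridised with kidney RNA of 8 mice aged 8 weeks. NEKO mice (n = 4) were Keap1-/-::Nrf2Flox/Flox::K5-Cre, where K5-Cre is a Cre recombinase driven by the Keratin5 promoter and active in squamous epithelium. Control mice (n = 4) were not wild type. They carried 1 inactive Keap1 allele and both floxed Nrf2 alleles, as Keap1+/-::Nrf2Flox/Flox, and 3 of the 4 also had K5-Cre (labelled K1Cre). Control 1, a female, was the animal without K5-Cre (labelled K1). All mice were of a mixed 129Sv/J and C57BL/6J background, and each group held 2 females and 2 males. The arrays of females were on 1 slide and those of males on a second, and an effect of sex cannot be told apart from one of slide.

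Glutathione S-transferases join the tripeptide glutathione to reactive, electron-poor molecules, such as lipid peroxidation products and metabolites of drugs. The conjugates leave the cell through export pumps and are trimmed to mercapturates, a route in which the proximal tubule of the kidney takes a large part. Keap1 is the adaptor that holds the transcription factor Nrf2 at a low level by directing its ubiquitination. When Keap1 is lost, Nrf2 binds antioxidant response elements together with small Maf proteins, and many transferase genes of the mu, pi and alpha classes are among its textbook targets.

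The sequences before the transcription start are shown for 3 members, chosen to set the clearest differences beside a gene with little difference. Gstp1 was the member with the lowest p-value. Gstm3 had the largest difference of the mu genes above background on every array, by the brightest probe of each gene. A second, dimmer probe of Gstm1 gave a larger one, 2.19. Gstm5, at one end of the same cluster, had nearly equal mean levels in both genotypes. Each run holds the 150 bases before the start, 5′ to 3′, from RefSeq on the mouse build GRCm38.p6. Gstp1 is the minus strand of chr19:4037913-4038062, Gstm3 the minus strand of chr3:107969175-107969324, and Gstm5 the plus strand of chr3:107895704-107895853. Capitals mark a match to either of 2 spellings of an antioxidant response element core. The spelling matched in Gstp1 was chosen after that sequence had been seen.
Gstp1: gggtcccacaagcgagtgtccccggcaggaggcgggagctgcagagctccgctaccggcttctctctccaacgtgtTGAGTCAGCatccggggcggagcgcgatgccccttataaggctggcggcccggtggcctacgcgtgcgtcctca
Gstm3: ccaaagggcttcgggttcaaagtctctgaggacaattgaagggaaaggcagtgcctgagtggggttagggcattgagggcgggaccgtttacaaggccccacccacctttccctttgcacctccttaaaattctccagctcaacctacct
Gstm5: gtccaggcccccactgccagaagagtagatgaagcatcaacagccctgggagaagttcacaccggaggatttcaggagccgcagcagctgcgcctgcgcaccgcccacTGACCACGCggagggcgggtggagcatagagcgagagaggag

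Both spellings were searched on both strands of all RefSeq promoter windows, each from 250 bases before to 50 bases after a start. The spelling TGACNNNGC was found in 12.4% of 32851 windows and in 2 of the 16 windows of the 10 members. One match was in Gstm5, with its first base 42 bases before the start, and the other was in the second of the Gstm7 windows, 129 bases before the start. The spelling TGANTCAGC was chosen after the Gstp1 sequence had been seen, so its match there was fixed in advance. It was found in 1.19% of windows and, among the members, in Gstp1 alone, 74 bases before the start. That share is no measure of how unusual the Gstp1 match is, and Gstp1 did not match TGACNNNGC. The spellings overlap, in that a sequence can match both. Gstm3, Gstm1 and Gstm4 held neither in their windows, which says only that these letters are not there.

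Levels are given as log2 of the processed signal of the gene's brightest kept probe less the 75th percentile of the same array. The arrays were alike in brightness, with a 75th percentile between 832.5 and 1093.8 signal units and with 61.7% to 65.7% of probes well above background. Levels of different genes come from different probes and are not set against each other. Keap1 itself lay between 1.77 and 1.92 in control kidneys and between 0.06 and 0.45 in NEKO kidneys, a fall of 1.63 ± 0.10 (SE; limma adjusted p = 0.0046), as the labels have it. All 10 members were tested, and 9 of them were well above background on all 8 arrays. Gstm6 was above it on 7.

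Gstp1 rose 2.98-fold in NEKO kidneys and was the member that passed the test. Gstp1 encodes the pi class transferase, which also binds the stress kinase JNK. Its level in control kidneys was 5.74, 5.79, 6.26 and 5.78 in controls 1, 4, 7 and 8, with a mean of 5.89 ± 0.25 (SD, n = 4). In NEKO kidneys it was 6.80 and 7.02 in the females NEKO 2 and NEKO 3, and 7.93 and 8.12 in the males NEKO 5 and NEKO 6, with a mean of 7.47 ± 0.66 (SD, n = 4). Every NEKO mouse was above every control mouse, and both male NEKO mice were above both female NEKO mice. The log2 difference was 1.57 ± 0.20 (SE), with a 95% interval from 1.10 to 2.05 and an adjusted p of 0.0486 by limma with a term for sex, Benjamini-Hochberg adjusted over 19593 genes and transcripts. The call was close to the threshold. It was lost when any 1 of the 8 mice was left out, with log2 differences of 1.40 to 1.70 and adjusted p between 0.055 and 0.148.

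Across the family, 1 of 10 members was called higher, where 0.097% of all features tested were. None was called lower, where 0.128% of all features were. At an unadjusted p under 0.05 in limma, 5 of 10 members were higher and none was lower, against 7.37% and 10.6% of all features. By the study methods' test without adjustment, 3 were higher and none was lower, against 4.81% and 6.48% of all features. In 4 members every NEKO mouse was above every control mouse, against 3.88% of all features, and in no member was every NEKO mouse below, against 5.33%. The median log2 difference of the 10 members was 0.861, and that of all features was -0.0316.

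**Figure D1:**
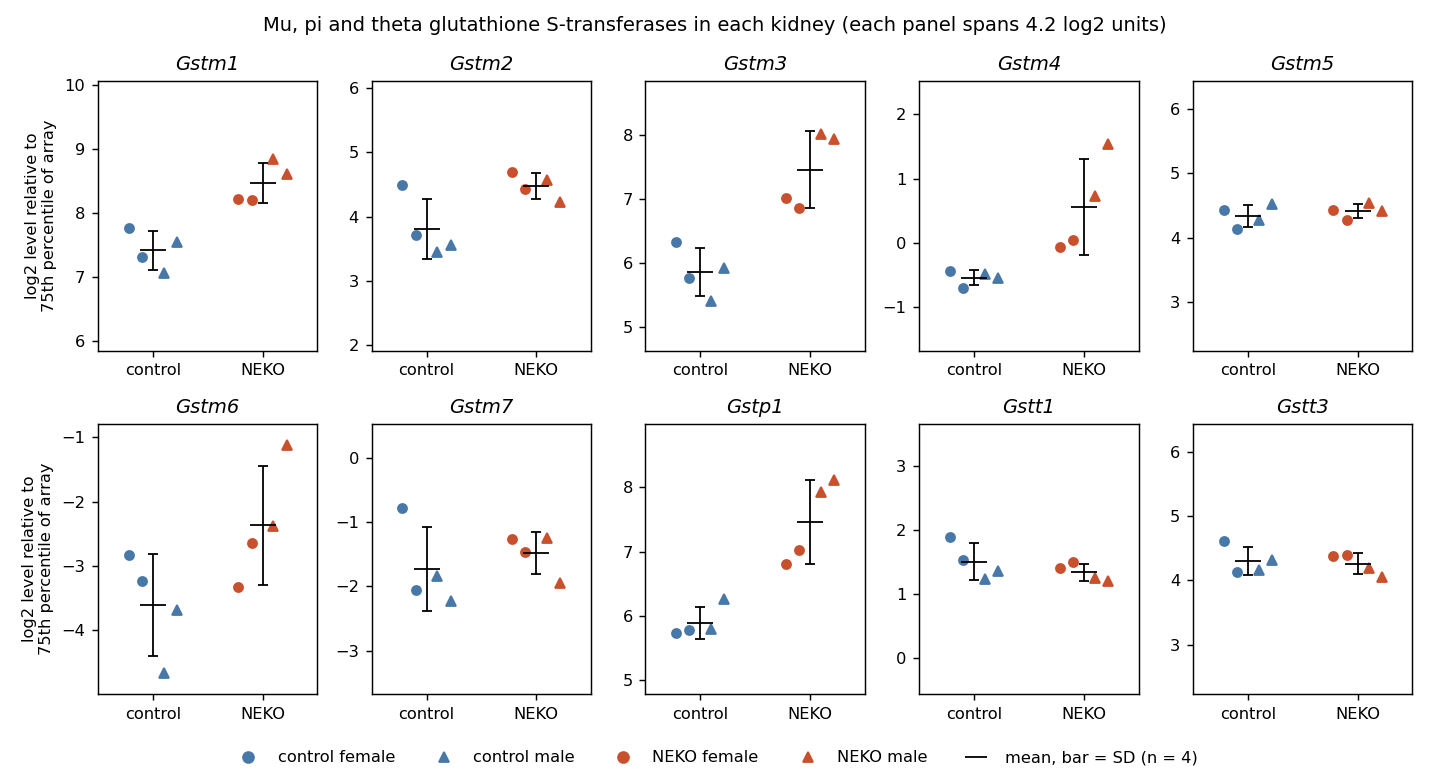
Level of each of the 10 members (log2 processed signal less the 75th percentile of the array, vertical axes that start at different values and all span the same number of log2 units) in the 4 control and 4 NEKO mice, with females as circles, males as triangles, and bars for the mean ± SD. Gstm1, Gstm3, Gstm4 and Gstp1 have no overlap between the groups, while Gstm2, Gstm5, Gstm6, Gstm7, Gstt1 and Gstt3 overlap.

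Of the mu genes, Gstm3, Gstm4 and Gstm1 had all NEKO values above all control values, although none of the 3 passed the adjusted threshold. Gstm3, a cytosolic conjugating enzyme of the mu class, was at 6.32, 5.41, 5.92 and 5.77 in controls 1, 4, 7 and 8, at 7.01 and 6.86 in the NEKO females and at 8.00 and 7.94 in the NEKO males. The group means were apart by more than the SD within either group, 0.38 in controls and 0.60 in NEKO mice. The NEKO males were about a log2 unit above the NEKO females. The log2 difference was 1.59 ± 0.31 (SE), or 3.02-fold, with an adjusted p of 0.086 by limma and an exact permutation p of 0.0286, the smallest that 4 mice against 4 allow.

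Gstm1, the major mu transferase of mouse liver, was measured with a very bright probe, with a mean processed signal of 239400. Its level was 7.77, 7.06, 7.55 and 7.31 in controls 1, 4, 7 and 8, and 8.22, 8.20, 8.85 and 8.61 in NEKO 2, 3, 5 and 6. No NEKO mouse fell within the control range. The log2 difference was 1.05 ± 0.20 (SE), or 2.07-fold, with a limma adjusted p of 0.086.

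Gstm4, also of the mu class, gave a mean processed signal of 974.6 and was above background on every array. Its level was -0.44, -0.49, -0.54 and -0.71 in controls 1, 4, 7 and 8, and -0.07, 0.04, 0.72 and 1.54 in NEKO 2, 3, 5 and 6. The controls were tightly grouped at a mean of -0.55 ± 0.11 (SD, n = 4), while the NEKO mice were spread around 0.56 ± 0.74 (SD, n = 4) with the males highest. The log2 difference was 1.10 ± 0.27 (SE), or 2.15-fold, and the limma adjusted p was 0.13.

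Gstm2 and Gstm6 were higher on average in NEKO kidneys, but with overlap between the groups. Gstm2, a mu transferase related closely in sequence to Gstm1, was at 4.49, 3.45, 3.56 and 3.71 in controls 1, 4, 7 and 8 and at 4.69, 4.43, 4.56 and 4.23 in NEKO 2, 3, 5 and 6. The overlap came from control 1, and the other 3 controls lay below all NEKO mice. The log2 difference was 0.67 ± 0.20 (SE), or 1.60-fold, with a limma adjusted p of 0.17. Gstm6 was dim, at -2.83, -4.68, -3.69 and -3.23 in the controls and at -3.33, -2.65, -2.39 and -1.11 in the NEKO mice. NEKO 3, 5 and 6 were above every control, and NEKO 2 was within the control range. Its log2 difference of 1.24 had a 95% interval from -0.10 to 2.57 and a limma adjusted p of 0.30. It was 0.74 without NEKO 6, 0.80 without control 4 and 0.78 with normexp background correction. That correction started from median spot signals and added an offset of 50, where the lowest processed signal of Gstm6 was 39.66. The part of the offset in the smaller difference was not tested.

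Gstm5, Gstm7, Gstt1 and Gstt3 showed no call in either direction. Gstm5, a mu gene known for expression in brain and testis, was between 4.13 and 4.52 in controls and between 4.28 and 4.54 in NEKO mice. Its log2 difference was 0.075 with a 95% interval from -0.16 to 0.31, so that a change of more than 24.1% upwards or 10.6% downwards lay outside the interval. Gstm7 was less closely bounded. It lay between -2.23 and -0.78 in controls and between -1.95 and -1.24 in NEKO mice, and its interval ran from -0.47 to 0.96. The theta genes encode transferases that act on small halogenated compounds. Gstt1 ranged from 1.23 to 1.89 in controls and from 1.21 to 1.50 in NEKO mice, with a log2 difference of -0.16 and an interval from -0.40 to 0.075. Gstt3 ranged from 4.13 to 4.61 and from 4.05 to 4.39, with a log2 difference of -0.047 and an interval from -0.33 to 0.23. The limma adjusted p-values of these 4 genes were between 0.42 and 0.85.

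Gstm1 and Gstp1 each had a second, dimmer probe on the array, and in both the dimmer probe gave the larger difference. On the second Gstm1 probe the level was 4.23, 3.25, 3.78 and 3.68 in controls 1, 4, 7 and 8 and 5.14, 5.06, 6.64 and 6.86 in NEKO 2, 3, 5 and 6. Its log2 difference was 2.19, against 1.05 on the brighter probe. The second Gstp1 probe was at 3.41, 3.42, 3.89 and 3.44 in the controls and at 4.62, 4.87, 6.08 and 6.40 in the NEKO mice, a log2 difference of 1.95 with a limma adjusted p of 0.0542. Within each mouse, the dimmer probe was closer to the brighter one in all NEKO mice than in any control. The genotype effects of the 2 probes differed by 1.14 for Gstm1 and by 0.378 for Gstp1, each with an exact two-sided permutation p of 0.0286, over 2 genes with such pairs. No spot was marked saturated. Gstp2, a close paralog of Gstp1, had no probe under its own name. Whether the probes also read transcripts of related genes, and whether the brightest signals were compressed, was not tested.

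**Figure D2:**
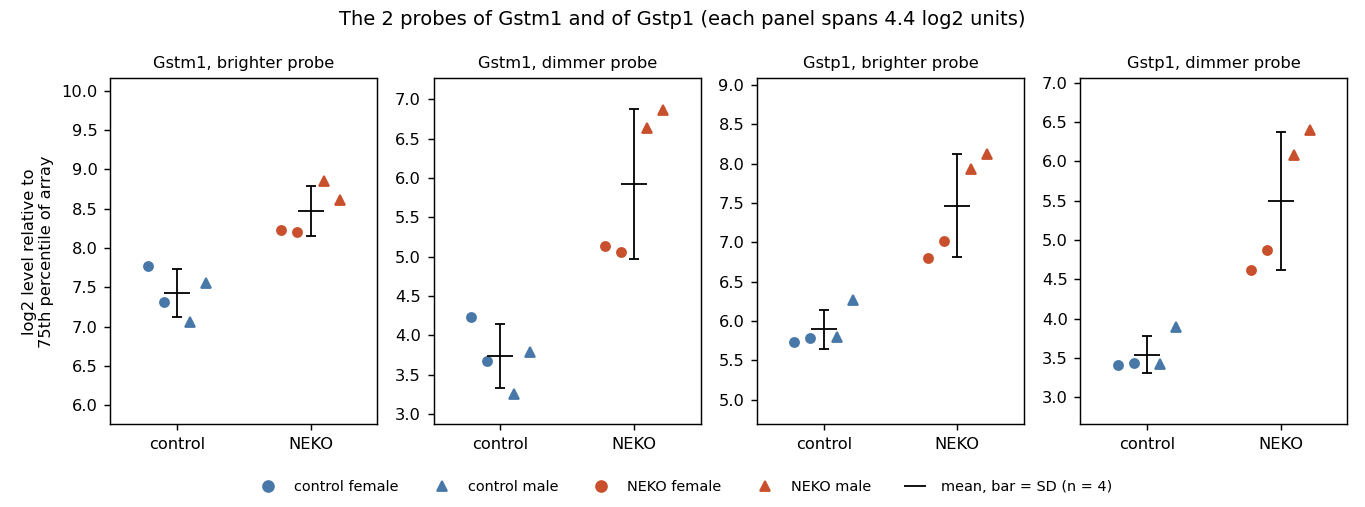
Levels on the brighter and the dimmer probe of Gstm1 and of Gstp1 in each of the 8 mice (log2 processed signal less the 75th percentile of the array), with controls and NEKO mice in separate colours females and males as circles and triangles, and bars for the mean ± SD. The gap between control and NEKO mice was wider on the dimmer probe, at 2.19 against 1.05 for Gstm1 and at 1.95 against 1.57 for Gstp1.

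The mu genes form 1 cluster on chromosome 3, and the differences were read along it in RefSeq gene order. From Gstm5 the order was Gstm7, Gstm6, Gstm3, Gstm2, Gstm1 and Gstm4. The log2 differences in that order were 0.075, 0.25, 1.24, 1.59, 0.67, 1.05 and 1.10. The nearest tested genes outside the cluster were 4933431E20Rik beside Gstm5, with 0.045, and Ampd2, an AMP deaminase, beside Gstm4, with 0.18. Neither was called. Differences between neighbours within the mu and theta clusters were tested in 7 pairs, which were chosen after the values had been seen. The largest step down was from Gstm3 to Gstm2, at -0.92, with an exact permutation p of 0.0571 (0.40 adjusted over the 7 pairs), and no pair passed. Around Gstp1 on chromosome 19, Ndufv1, a subunit of respiratory complex I, was at -0.22 and Cabp2 at 0.48, and neither was called. On chromosome 10, the theta genes lay between Ddt at -0.20 and Gstt2 at 0.059.

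**Figure D3:**
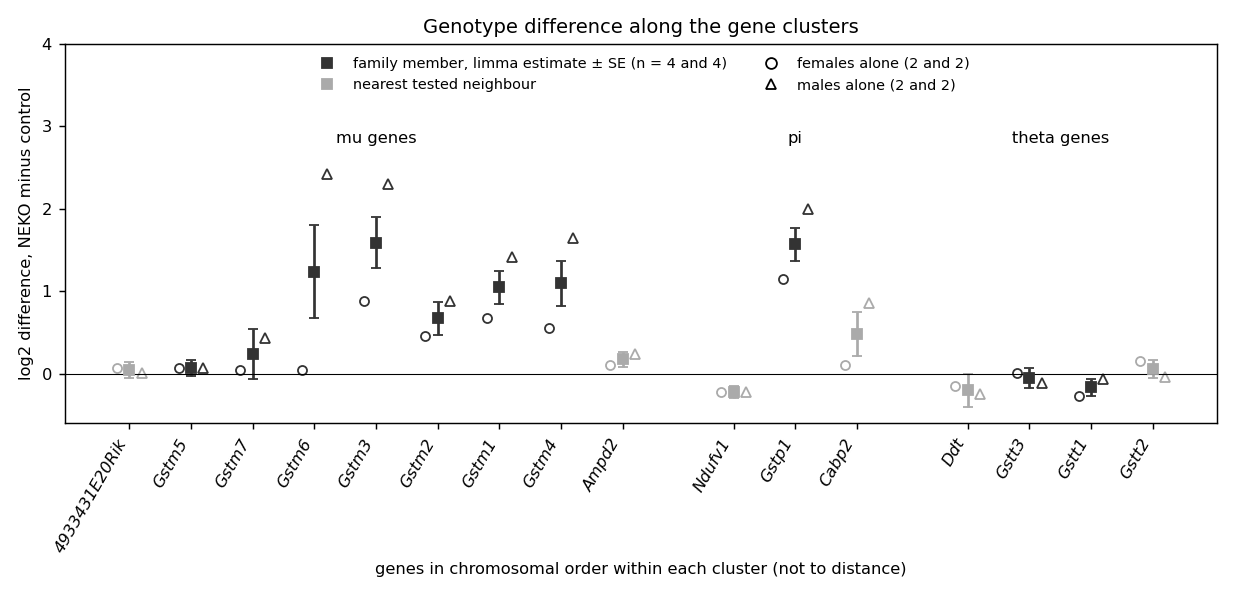
Log2 difference (NEKO minus control) of the members and of the nearest tested neighbours, in chromosomal order within the mu, pi and theta clusters, as limma estimates ± SE with the values for females and males alone. The mu genes from Gstm6 to Gstm4 and Gstp1 lie between 0.67 and 1.59, while Gstm5, Gstm7, the theta genes and the outer neighbours lie between -0.22 and 0.48.

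The log2 difference was larger in males than in females for most members. In females alone the median log2 difference over the 10 members was 0.266 and in males alone 1.16, while those of all features were -0.0338 and -0.0288. The male value was the larger in 9 of 10 members, against 50.3% of all features. Gstm6 gave the widest gap, with 0.044 in females and 2.43 in males. Gstm3 followed with 0.89 and 2.30, Gstm4 with 0.56 and 1.65, and Gstp1 with 1.15 and 2.00. In the model with a genotype by sex term, these 4 members had unadjusted p between 0.0052 and 0.025, against 6.87% of all features with a larger male effect at an unadjusted p under 0.05. None passed after adjustment over all features (limma adjusted p between 0.19 and 0.36), where 0.0153% of all features did. When the effect was averaged over the sexes in that model, 4 of 10 members were called higher (Gstm1, Gstm3, Gstm4 and Gstp1, with limma adjusted p from 0.00546 to 0.042), against 1.26% of all features. With 2 mice of each sex and genotype, and with the sexes on different slides, a difference of sexes cannot be told apart from one of slides.

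Control 1, the control without K5-Cre, had the highest level of the 4 controls in 8 of the 10 members, against 31.7% of all features. Gstm7 was 1.27 higher in it than in the mean of the other 3 controls on the log2 scale, Gstm6 1.03 and Gstm2 0.92. Its levels of Gstm7, Gstt1 and Gstt3 were above those of all 4 NEKO mice. With 1 such mouse, the absence of K5-Cre cannot be told apart from the animal itself. Without it, the log2 difference of Gstm7 was 0.54 in place of 0.25, that of Gstm6 was 1.56, that of Gstm3 was 1.85, that of Gstm2 was 0.87 and that of Gstp1 was 1.65. Gstm7 also moved with other mice, to 0.028 without control 8, 0.066 without NEKO 5 and 0.13 without control 7, and was called in none of these fits.

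In the same kidneys, the remaining glutathione transferases had differences of both signs. The list held the alpha, omega, zeta, kappa and sigma enzymes, the pi and theta genes that are not members, Gstcd and the membrane-bound transferases with related prostaglandin and leukotriene synthases, 20 genes of which 16 were tested. No gene was called by limma. At an unadjusted p under 0.05, 7 of 16 were higher and 2 were lower, against 7.37% and 10.6% of all features, and 6 passed the study methods' test without adjustment, against 11.3% of all features. The median log2 difference was 0.547. Mgst1, a microsomal transferase and peroxidase, was higher by 1.56 ± 0.39 (SE; limma adjusted p = 0.14). Gsta3, an alpha class enzyme, was higher by 1.50 ± 0.47 (adjusted p = 0.19 by limma). Mgst2, which can also form leukotriene C4, was higher by 1.50 ± 0.34 (limma adjusted p = 0.12). In these 3 genes the groups did not overlap. Counting all 16 tested, 4 had every NEKO mouse above every control, against 3.88% of all features. In 2 genes, named after their values were seen, every NEKO mouse was below every control, against 5.33% of all features. These were Hpgds, a prostaglandin D synthase, with -0.72 (limma adjusted p = 0.20) and Ptges2, a prostaglandin E synthase, with -0.18 (limma adjusted p = 0.28).

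Genes that supply glutathione and NADPH had a median log2 difference of 0.373 over 12 tested genes of 13. None was called by limma. At an unadjusted p under 0.05, 8 were higher and none was lower, against 7.37% and 10.6% of all features. By the study methods' test without adjustment 4 passed, against 11.3% of all features. Pgd, an NADPH-forming enzyme of the pentose phosphate pathway, was higher by 1.70 ± 0.32 (SE; limma adjusted p = 0.080). Gsr, glutathione reductase, was higher by 1.20 ± 0.26 (limma adjusted p = 0.11), and G6pdx, which feeds the same pathway as Pgd, by 1.01 ± 0.16 (limma adjusted p = 0.061).

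Downstream of conjugation, 19 of 22 genes for mercapturate formation and conjugate export were tested, with a median log2 difference of 0.252. None was called by limma. At an unadjusted p under 0.05, 9 were higher and 1 was lower, against 7.37% and 10.6% of all features. By the study methods' test without adjustment 4 passed, against 11.3% of all features. The export pump Abcc3 was higher by 2.98 ± 0.78 (SE; limma adjusted p = 0.14) and the related pump Abcc4 by 2.61 ± 0.57 (limma adjusted p = 0.11). Slc22a8, an organic anion transporter of the proximal tubule, was higher by 0.82 ± 0.27 (limma adjusted p = 0.20). All values of these 3 genes were higher in NEKO than in control mice. This held for 5 of the 19 tested, against 3.88% of all features.

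**Figure D4:**
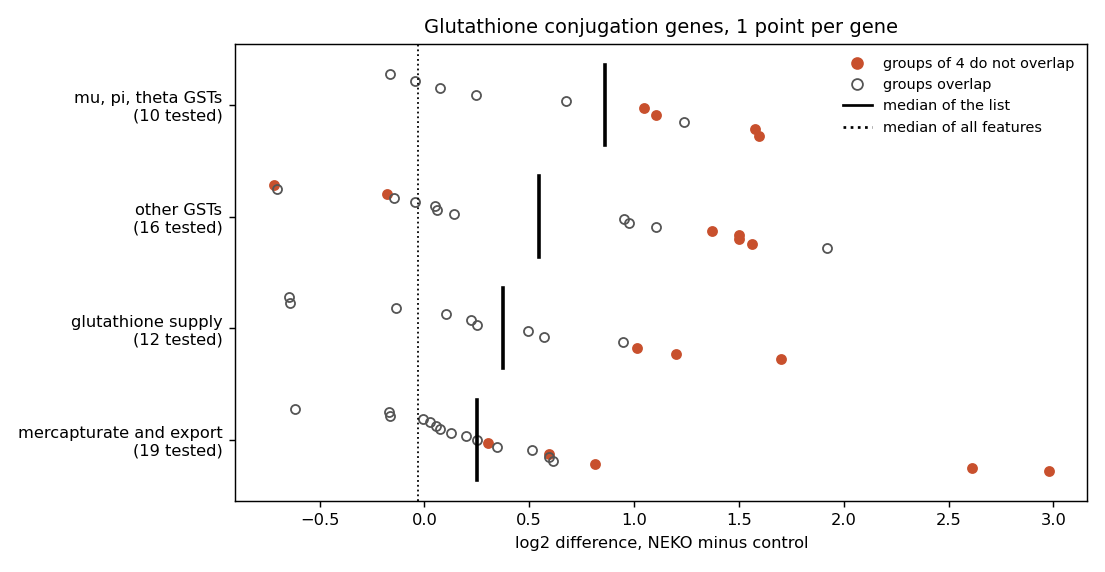
Log2 difference (NEKO minus control, limma estimate) of each tested gene in the mu, pi and theta family, the other transferases, the glutathione supply genes and the mercapturate and export genes, with bars at the median of each list, a dotted line at the median of all features, and filled points where the groups did not overlap. The medians are 0.861, 0.547, 0.373 and 0.252, against -0.0316 for all features.

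Of 29 known Nrf2 targets that were tested, 2 were called higher, against 0.097% of all features. These were Gpx2, a glutathione peroxidase of epithelia, with a log2 difference of 5.40 (limma adjusted p = 0.011), and Txnrd1, cytosolic thioredoxin reductase, with 1.30 (limma adjusted p = 0.0486). Carbonyl reductase Cbr3 and aldehyde oxidase Aox1 had differences of 5.83 and 3.43, with limma adjusted p of 0.054 and 0.063. The median of the 29 targets was 1.01, and 24 were higher at an unadjusted p under 0.05, against 7.37% of all features. No mu, pi or theta gene was on this list, which shares Gsta1, Gsta2, Gsta4, Gclc, Gclm, Gsr, G6pdx, Pgd, Slc7a11 and Abcc1 with the lists above. In females the median was 0.392 and in males 1.62, with the larger value in males for 28 of the 29.

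Markers of renal cell types were read beside these results. The proximal tubule list, whose cells hold much of the kidney's conjugating capacity, had a median log2 difference of 0.055 over 10 genes tested of 12. Its summed linear level, relative to the 75th percentile, was 891 to 1010 in NEKO and 795 to 1030 in control kidneys. The 8 intercalated cell markers were all lower on average, by a median of -0.899, with 6 of the 8 at an unadjusted p under 0.05, against 10.6% of all features lower. Their summed level was 7.61 to 27.1 in NEKO and 38.7 to 52.8 in control kidneys, without overlap. The brightest gene weighs most in this sum. It was Slc26a4, with a control mean of 4.69 and a log2 difference of -2.07. Gene by gene, the differences ran from -2.29 to -0.091. In 2 of the 8 every NEKO mouse was below every control, against 5.33% of all features. The thick ascending limb markers were lower on average in 7 of 7, with 4 at an unadjusted p under 0.05, a median of -0.27 and a summed level of 236 to 403 against 393 to 456. Of 6 distal convoluted tubule markers 5 were tested, and 4 of these were lower at an unadjusted p under 0.05. Their median was -0.574, with a summed level of 47.8 to 84.5 against 44.8 to 92.7. The brightest of the 5, Calb1, weighs most in that sum, with a control mean of 5.53 and a log2 difference of 0.014. The 8 urothelial markers had a median of 1.33, with 0.206 in females and 2.32 in males. On average 6 were higher and 2 were lower, Upk1a at -0.71 and Krt7 at -0.27. Their summed level was 27.6 to 34.3 in NEKO and 24 to 43.1 in control kidneys. Krt7, the brightest of them with a control mean of 4.90, weighs most in that sum, which says little of the other markers. Of 7 neutrophil markers, 3 were tested, with a median of 1.64 and a summed level of 0.353 to 6.67 against 0.224 to 0.529. The 3 log2 differences were 1.81, 1.64 and 0.047, and the medians were 0.461 in females and 2.81 in males. The gene with 1.81 was well above background on 4 arrays, the fewest that the filter allows. Over all 14 marker lists, no gene of 98 tested was called by limma, 16 were higher and 20 lower at an unadjusted p under 0.05 (7.37% and 10.6% of all features), and 13 passed the study methods' test without adjustment (11.3% of all features). The part of these cell types in the transferase levels was not tested. In whole kidney, fewer cells of a type and less RNA per cell cannot be told apart.

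Genes whose pattern over the 8 arrays was most like that of Gstm3 were Fetub, a fetuin, with a Pearson correlation of 0.993, Pip4k2b, a phosphoinositide kinase, with 0.992, Krt19, a keratin of simple epithelia and the collecting system, with 0.989, Epn2, an endocytic adaptor, with 0.987 and Gng4, a G protein subunit, with 0.986. Their own log2 differences were 2.90, 0.27, 1.85, 0.18 and 1.43. The likeness includes the genotype difference that these arrays share and is given as a description. None of the 5 was called, with limma adjusted p from 0.0651 to 0.26. Krt19 is also a member of the urothelial list.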

How the data were processed

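Kidney RNA of 8 mice had been hybridised to 1-colour Agilent arrays, and the deposited scanner files held 1 processed intensity per spot, which the authors obtained with Agilent Feature Extraction 10.7.3.1. A deposited value table in log2, made by the authors, matched the scaled scanner values and served as an alternative. Control spots and outlier spots (73 to 172 per array) were left out, spots of a probe were averaged, and log2 intensity less the 75th percentile of each array was used. Probes were kept if well above background on at least 4 arrays, and the kept probe with the highest mean stood for its gene. Of 41174 probes, 26690 were named through RefSeq accessions. Genotype was tested with sex as covariate in limma 3.58.1 (R 4.3.3), with Benjamini-Hochberg adjustment over 19593 features and a threshold of 0.05. Single values had exact two-sided permutation tests. The members and gene lists were chosen with earlier results of these data known. All members were named. A gene of another list was named if called, or among the 3 with the largest difference between groups without overlap. The alternatives changed the background correction, scaling, filter, probe choice, sex term, variance prior, array weights, test, value source and mice. Each array was a separate mouse, and their number limits the precision.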

Additional observations from a re-analysis of the deposited data

Results flagged for a closer look

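Gstp1 in the control kidneys had 1 sample apart from the rest. Control 7, a male, was at 6.26, and the other 3 controls were between 5.74 and 5.79, so that its gap to the nearest of them made up 0.893 of the whole range of the group, above the 95% critical value of Dixon's test. This was the single case among the 20 groups of 4 that were looked at, and chance gives about 1 in 20. Control 7 was still below every NEKO mouse. Without it the log2 difference of Gstp1 was 1.58.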

How the results depend on the processing

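No paired analysis was run. The paper names littermates as controls, but the sample labels do not give the litter of a mouse. Slide as a block gave the same fit as sex. The number of members called higher, 1 as reported, was 0 without a filter on dim probes, with detection on all 8 arrays, with the mean of the kept probes, without the sex term, with the methods' test after adjustment and at an adjusted p under 0.01. It was 5 at an unadjusted p under 0.05, where 7.37% of all features were higher. It was 3 with the methods' test without adjustment, where 4.81% of all features were higher. It was 4 when the effect was averaged over the sexes in the interaction model (Gstm1, Gstm3, Gstm4 and Gstp1, where 1.26% of all features were called higher). Without any 1 of the 8 mice it was 0. Gstp1 was called by adjusted p in 9 of 24 alternatives. The methods' test without adjustment was also among the 24, and Gstp1 passed it, but it is not counted in the 9. The 9 include slide as a block, which is the same fit, and the authors' value table, which held matching values. Neither adds separate support. Over the 24, log2 differences of Gstp1 ran from 1.40 to 1.95, and limma or methods' adjusted p from 0.00546 to 0.363. The sexes taken alone are not among the 24, and gave 1.15 in females and 2.00 in males. The other transferases, 0 called as reported, had 3 called with averaging over the sexes and 6 with the methods' test without adjustment. The latter passed 11.3% of all features in either direction. The supply genes, 0 as reported, had 1 under normexp, trend, trend with robust fitting and array weights, 3 with averaging and 4 with the methods' test without adjustment. The export genes, 0 as reported, had 3 and 4 in the last 2 settings. The Nrf2 targets, 2 as reported, had 8 under normexp and trend, 6 with trend and robust fitting and with array weights, 14 with averaging and with the methods' test without adjustment, 0 with it after adjustment, and 1 under quantile normalisation, median centring, no filter and detection on all arrays. With 1 mouse left out they had from 0 (without control 7) to 2. Shares of all features were counted only for the settings where they are given here. A rise in a list's count in the other settings cannot be told apart from more calls over all features. Gstt3 changed sign, to 0.037 without control 1 and to 0.016 in females alone (range with 1 mouse left out, -0.157 to 0.037), and the other 9 members kept their direction under all alternatives run. The cause of these changes was not tested.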
